A study of Mus musculus with 25 samples.

Results

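The genes described here carry fatty acids from the blood to the enzymes inside the heart muscle cell. Of these genes 9 were followed, chosen by name with earlier results of these data known: Lpl, Gpihbp1, Vldlr, Cd36, Slc27a1, Fabp3, Fabp4, Fabp5 and Dbi. They are 9 of 35890 genes to which transcripts of the deposited table could be assigned, and all 9 passed the filter on low levels that left 11977 genes for testing. Myocardial mRNA, from the left ventricle per the labels, was sequenced in 25 male mice, 5 in each of 5 groups. WT CNTL and GPx4+/- CNTL mice, wild type or carrying 1 intact copy of Gpx4 (an enzyme that reduces lipid hydroperoxides), were given normal chow for 16 weeks from 8 to 10 weeks of age. WT HFHS and GPx4+/- HFHS mice were given a diet of lard, cholesterol and sucrose over the same weeks, and WT HFHS + Carnosine mice also drank 80 mM carnosine, a dipeptide that binds reactive aldehydes, from week 7 on. GPx4+/- mice were littermates of the WT mice on a C57BL6/J background, and they lack 1 copy of Gpx4 in every tissue, not in the heart alone. Mice were fasted for 8 h and then given dextrose or saline before collection, and which mouse received which is not given in the sources used here. Levels are scaled TPM, TPM (a measure of transcripts per length and library) summed over the transcripts of a gene and divided by a factor per mouse. Levels of different genes can thus be ordered. A gene was called changed at an adjusted p under 0.05 in limma over all 11977 genes.

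The heart takes most of its fuel as long-chain fatty acids. They arrive in triglyceride-rich lipoproteins, from which lipoprotein lipase releases them at the capillary wall, or bound to albumin. They cross the endothelium and the muscle cell membrane, are held in solution by fatty acid binding proteins, and after activation to acyl-CoA esters they are bound by the acyl-CoA binding protein that Dbi encodes. Many of these genes are targets of the PPAR nuclear receptors, which fatty acids activate.

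All samples showed the markers of heart muscle: 6 of 6 cardiomyocyte markers were present, with summed levels of 25435 to 33314 scaled TPM. Gpx4 itself had 670.5 ± 47.1, 712 ± 67.3 and 696 ± 30.3 scaled TPM in the WT groups (SD, n = 5; CNTL, HFHS and HFHS + Carnosine) against 306 ± 43.1 and 352 ± 22.1 in GPx4+/- CNTL and HFHS mice, in accord with the labels. Some libraries held marker RNA of other tissues, whose source was not tested. Atrial markers summed to 3222 scaled TPM in GPx4+/- CNTL replicate 1, 3156 in WT CNTL replicate 3 and 1754 in GPx4+/- HFHS replicate 4, where the medians of these groups were 36.3, 37.4 and 27.0. Liver markers summed to 1003 in GPx4+/- CNTL replicate 2, where the median was 5.44. Calls without 6 mice in which atrial, liver, smooth muscle or endocardial genes stood high (these 4, WT HFHS replicate 4 and WT HFHS + Carnosine replicate 2) are given beside the results they touch. Some of the mice kept had raised sums too: liver markers were at 68.0 and 38.0 in GPx4+/- HFHS replicates 1 and 3. Atrial markers were at 228 in WT HFHS replicate 1, which was also kept. Mitochondrial transcripts took 31.3% to 48.7% of a library's TPM, and scaling factors ran from 0.865 to 1.16.

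Before the diets are compared, the genes can be ordered by level. Fabp3 was by far the most abundant, with a mean of 5415 scaled TPM over the 25 mice and rank 11 among nuclear genes. Lpl, Cd36 and Fabp4 followed, and the ranges of these 4 genes over all mice did not overlap. Fabp3 exceeded Lpl 3.04-fold, Lpl exceeded Cd36 1.63-fold, and Cd36 exceeded Fabp4 1.73-fold. Dbi lay 2.79-fold below Fabp4. Gpihbp1, Slc27a1 and Vldlr came next, and here neighbours did overlap: Dbi was above Gpihbp1 in 25 of 25 mice, Gpihbp1 above Slc27a1 in 24, and Slc27a1 above Vldlr in only 17. Fabp5 was lowest, 3.06-fold below Vldlr, with no overlap. Among the 3 binding proteins of the Fabp family the order Fabp3, Fabp4, Fabp5 held in every mouse.

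**Figure D1:**
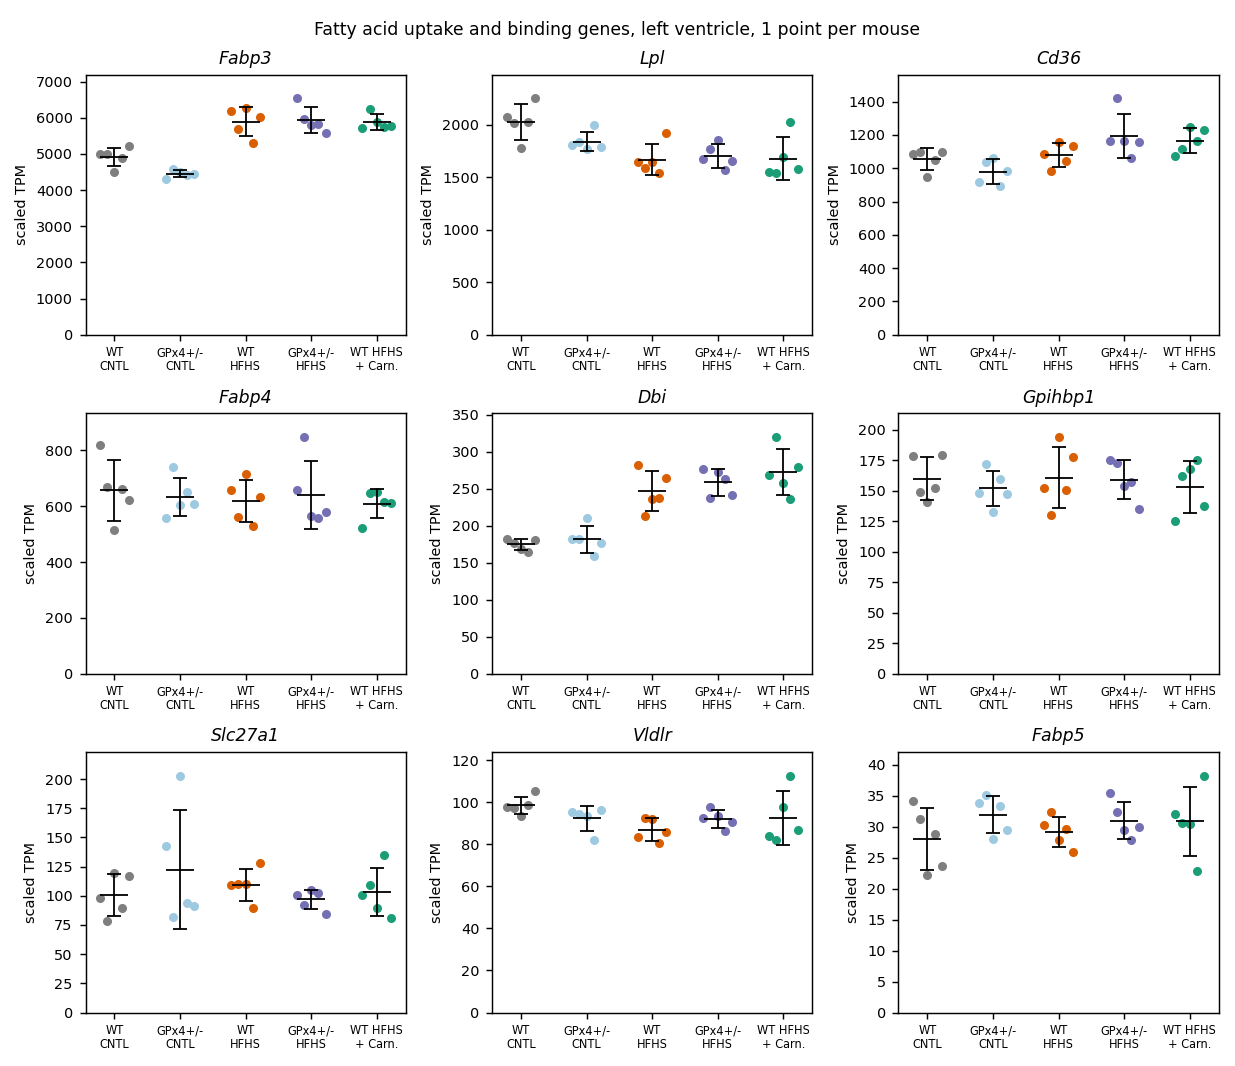
Level of each gene in scaled TPM (vertical axes, each from 0) in the 5 groups, with 1 point per mouse, the group mean as a long bar and the SD as whiskers. Fabp3 and Dbi of the 15 mice on HFHS lie above those of the 10 mice on CNTL, and Slc27a1 has 2 high mice among GPx4+/- CNTL.

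Feeding the HFHS diet was accompanied by higher Dbi and Fabp3 in both genotypes, by lower Lpl in WT mice and over both genotypes together, and by higher Cd36 in GPx4+/- mice. Fabp4, Fabp5, Gpihbp1, Slc27a1 and Vldlr were not called in any comparison. In WT mice 3 of 9 genes were called, 2 higher and 1 lower, where 1.19% of all genes tested were called (0.66% higher and 0.526% lower). In GPx4+/- mice 3 of 9 were called, all higher, where 3.34% of all genes were called (2.18% higher and 1.16% lower). Over both genotypes together 3 of 9 were called, Dbi and Fabp3 higher and Lpl lower, where 8.31% of all genes were called (4.67% higher and 3.64% lower). Because the 9 genes were chosen with earlier results known, these shares describe the genes and do not test them as a set. The split of all calls moved with the scaling: 55.6%, 65.2% and 56.2% of them were higher in WT mice, in GPx4+/- mice and over both, against 55.3%, 8.73% and 20% with TPM as deposited and 42.4%, 49.1% and 35.1% without mitochondrial transcripts. The median log2 difference of the 9 genes was 0.03 in WT mice and 0.01 in GPx4+/- mice, beside 6.4e-05 and -0.0017 over all genes tested.

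Dbi encodes the acyl-CoA binding protein, which holds long-chain acyl-CoA esters in the cytosol. The gene (ENSMUSG00000026385.16) lies on chromosome 1 from 120113280 to 120121078 on the minus strand of GRCm38, and 1 protein-coding transcript, ENSMUST00000027634, gave on average 94.9% of its TPM. Dbi was at 183, 177, 169, 165 and 181 scaled TPM in the 5 WT CNTL mice and at 182, 181, 210.4, 159 and 176 in the GPx4+/- CNTL mice. It was at 282, 212, 236, 237 and 265 in WT HFHS mice and at 277, 237, 273, 264 and 242 in GPx4+/- HFHS mice. The mice given carnosine had 268, 319.8, 258, 236 and 279.6. Every mouse on HFHS was thus above every mouse on CNTL, the closest being 212 in 1 WT HFHS mouse and 210.4 in 1 GPx4+/- CNTL mouse. Such a gap between the 15 HFHS and 10 CNTL mice was seen for 2 of the 9 genes, Dbi and Fabp3, and for 0.342% of all genes tested. The gap was also there for both genes in TPM as deposited, with 206.8 and 209.7 TPM as the closest mice for Dbi and 5129 and 5272 for Fabp3.

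The mean of Dbi was 1.41-fold higher on HFHS in WT mice and 1.42-fold higher in GPx4+/- mice. On the log2(scaled TPM + 0.5) scale the difference was 0.49 ± 0.08 (SE) in WT (adjusted p = 0.00514, limma) and 0.51 ± 0.08 in GPx4+/- mice (adjusted p = 0.0017, limma). Over both genotypes it was 0.50 ± 0.05 (adjusted p = 3.59e-05, limma), rank 4 of 11977 genes by p. The call held in each genotype under all alternatives tried and without each mouse in turn. The difference between the genotypes in this effect was 0.02 on the log2 scale, with a 95% interval of -0.20 to 0.24.

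Fabp3, the fatty acid binding protein of heart and skeletal muscle, was at 4987, 5005, 4512, 4876 and 5207 scaled TPM in WT CNTL mice and at 4299.8, 4584, 4499.9, 4427 and 4455 in GPx4+/- CNTL mice. It was at 6198, 5679, 6274, 5296 and 6027 in WT HFHS mice and at 6539, 5954, 5806, 5812 and 5581 in GPx4+/- HFHS mice. With carnosine it was at 5711, 6247, 5887, 5736 and 5780.4. The lowest mouse on HFHS (5296) was above the highest on CNTL (5207). The mean was 1.20-fold higher on HFHS in WT mice, a log2 difference of 0.26 ± 0.06 (SE; adjusted p = 0.0295, limma). In GPx4+/- mice it was 1.33-fold higher, 0.41 ± 0.06 on the log2 scale (adjusted p = 0.00113, limma), the fifth smallest p of all genes. The call in GPx4+/- mice and the call over both genotypes (0.34 ± 0.04, adjusted p = 4.81e-05, limma) held under every alternative and without each mouse. The call in WT mice was lost under 5 of 13 alternatives, with adjusted p up to 0.147 (limma), and without any 1 of 6 mice, WT CNTL replicates 1, 2 and 4 and WT HFHS replicates 1, 3 and 5, with adjusted p of 0.0546 to 0.0757 (limma).

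Fabp3 (ENSMUSG00000028773.8) lies on chromosome 4 from 130308595 to 130315463 on the plus strand of GRCm38 and has 1 transcript in the table. A processed pseudogene, Fabp3-ps1, is 99.3% identical to that transcript over its length and was listed at a mean of 20.9 TPM, so a small part of its reads could belong to Fabp3. Scaled levels of Fabp3-ps1 reached 34.7 in the highest mouse, against at least 4299.8 for Fabp3.

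Promoter windows from RefSeq on GRCm38.p6, 250 bases before and 50 after each annotated start, were found for 5 of the 9 genes: Dbi, Fabp3, Cd36, Slc27a1 and Vldlr. The windows of Fabp3 and Cd36, both called higher on HFHS in at least 1 genotype, are printed 5′ to 3′ on the strand of the gene to show what sequence lies at these starts. Capitals mark matches, on either strand, to TATAAA of the TATA box, to CCAAT of the box of that name, to GGGCGG of the GC box or to AGGTCA, the half-site of many nuclear receptors. The Fabp3 window is chr4:130308488-130308787, plus strand, and the Cd36 window is chr5:17835847-17836146, minus strand.
Fabp3: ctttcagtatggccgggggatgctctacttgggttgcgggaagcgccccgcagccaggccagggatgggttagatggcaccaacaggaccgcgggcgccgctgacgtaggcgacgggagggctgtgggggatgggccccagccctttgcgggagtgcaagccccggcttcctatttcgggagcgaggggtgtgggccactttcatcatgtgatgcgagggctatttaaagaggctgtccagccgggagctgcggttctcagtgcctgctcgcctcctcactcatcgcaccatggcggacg
Cd36: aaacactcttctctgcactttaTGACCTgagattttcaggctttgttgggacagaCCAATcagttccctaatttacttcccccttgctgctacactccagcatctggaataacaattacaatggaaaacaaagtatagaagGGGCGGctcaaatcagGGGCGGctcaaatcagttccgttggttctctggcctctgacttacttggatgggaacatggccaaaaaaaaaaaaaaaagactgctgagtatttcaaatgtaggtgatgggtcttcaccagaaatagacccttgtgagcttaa
The Cd36 window has 1 CCAAT box, 2 GC boxes and 1 AGGTCA on the opposite strand. The Fabp3 window holds none of these letters. Of all 32851 windows in the table, 13.6% hold TATAAA, 37.4% CCAAT, 35.7% GGGCGG and 16.3% AGGTCA on either strand. The matches are a description of the letters and were not tested for a role.

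Cd36, the membrane protein that takes up long-chain fatty acids into both endothelial and muscle cells, lies on chromosome 5 from 17781690 to 17888801 (ENSMUSG00000002944.15, minus strand). It was at 1086, 1099, 946, 1051 and 1097 scaled TPM in WT CNTL mice and at 1087, 982, 1155, 1041 and 1135 in WT HFHS mice. In GPx4+/- mice it was at 915, 1037, 1064, 892 and 985 on CNTL and at 1163, 1420.2, 1160.5, 1062 and 1158 on HFHS. In WT mice the groups overlapped widely, whereas 4 of 5 GPx4+/- HFHS mice were above every GPx4+/- CNTL mouse. The log2 difference was 0.28 ± 0.07 (SE) in GPx4+/- mice (1.22-fold, adjusted p = 0.0390, limma) and 0.03 ± 0.07 in WT mice (adjusted p = 0.862, limma). The difference between these effects was 0.25 ± 0.10 on the log2 scale (adjusted p = 0.677, limma), so a difference between the genotypes was not called. Over both genotypes the log2 difference was 0.16 ± 0.05 (adjusted p = 0.0615, limma). It passed the threshold with quantile normalization (adjusted p = 0.0263, limma), with array weights (0.0404) and without GPx4+/- CNTL replicate 3, WT HFHS replicate 2 or GPx4+/- HFHS replicate 4 (0.0476, 0.0480 and 0.0377).

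The Cd36 call in GPx4+/- mice was lost under 6 of 13 alternatives (adjusted p of 0.0528 to 0.117, limma), including the one without the 6 mice chosen by marker genes (log2 difference 0.32, adjusted p = 0.0537, limma). It was also lost without any 1 of 7 mice, GPx4+/- CNTL replicates 1, 4 and 5 and GPx4+/- HFHS replicates 1, 2, 3 and 5, with adjusted p of 0.0595 to 0.0995 (limma). Replicate 2 of GPx4+/- HFHS was the highest of all 25 mice at 1420.2 scaled TPM, and without it the log2 difference was 0.22. Its library also had the highest share of mitochondrial transcripts, 48.7%, whose part in the value was not tested, and without mitochondrial transcripts in any library the difference was 0.25 (adjusted p = 0.103, limma). With TPM as deposited, where the median of all genes itself fell by 0.101 on the log2 scale in this comparison, the Cd36 difference was 0.17 (adjusted p = 0.101, limma). The transcripts ENSMUST00000169095, ENSMUST00000197890 and ENSMUST00000197574 of Cd36 carried on average 28.5%, 29.8% and 29.6% of the gene's TPM. Their means in GPx4+/- mice were 283, 291 and 283 scaled TPM on CNTL and 344, 358 and 353 on HFHS.

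Lpl, the lipase that frees fatty acids from circulating triglyceride, lies on chromosome 8 from 68880491 to 68907448 (ENSMUSG00000015568.16, plus strand). It was at 2072, 2011, 1774, 2020.1 and 2251 scaled TPM in WT CNTL mice and at 1649, 1585, 1640.2, 1536 and 1918 in WT HFHS mice. In GPx4+/- mice it was at 1806, 1834, 1764, 1999.7 and 1790.2 on CNTL and at 1671, 1772, 1854, 1563 and 1655 on HFHS. In WT mice 4 of 5 HFHS mice were below every CNTL mouse, and in GPx4+/- mice 3 of 5 were. The log2 difference was -0.28 ± 0.07 (SE) in WT mice (0.822 times the CNTL mean, adjusted p = 0.0458, limma) and -0.11 ± 0.07 in GPx4+/- mice (adjusted p = 0.404, limma). The value in GPx4+/- mice moved with the scaling, from -0.041 with quantile normalization to -0.22 with TPM as deposited (adjusted p = 0.784 and 0.0971, limma). Between the genotypes the diet effects on Lpl differed by 0.17 ± 0.10 on the log2 scale (adjusted p = 0.716, limma), which was not called. Over both genotypes Lpl fell by 0.20 on the log2 scale (SE 0.05, adjusted p = 0.0149, limma), a call kept under all alternatives, at adjusted p up to 0.0496 (limma).

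The Lpl call in WT mice was less firm. It was lost under 7 of 13 alternatives, including the one without the 6 mice chosen by marker genes (log2 difference -0.30, adjusted p = 0.0516, limma). It was also lost without any 1 of 8 mice, all but WT CNTL replicate 3 and WT HFHS replicate 5, with adjusted p up to 0.111 (limma). Lpl in the table is split between a protein-coding transcript, ENSMUST00000015712, and one annotated as a target of nonsense-mediated decay, ENSMUST00000168401, with on average 47.6% and 52.3% of the gene's TPM. The coding transcript had 979 ± 68.9 scaled TPM (SD, n = 5) in WT CNTL mice, 746 ± 108 in WT HFHS mice and 789.7 ± 41.2 in WT HFHS + Carnosine mice. Its 5 values in WT HFHS mice, 619.6 to 879, lay below the lowest in WT CNTL mice, 882. Gene levels of these 2 groups did not overlap for 4.52% of all genes tested. Those of WT HFHS + Carnosine and WT CNTL mice did not overlap for 3.28%. A share over all transcripts was not computed. Both HFHS groups differed from WT CNTL with p = 0.00794 (2-sided exact permutation test, unadjusted, the smallest p that 5 against 5 mice allow), and they share the WT CNTL mice. In GPx4+/- mice the coding transcript had means of 890.2 on CNTL and 835.9 on HFHS (p = 0.381, same exact permutation test). The transcript marked for decay had 1044 ± 106 in WT CNTL and 918 ± 122 in WT HFHS mice, with overlap (p = 0.127, same exact permutation test). Transcripts of 1 gene share most of their reads, so the split is an estimate, and with coding transcripts only the log2 difference of Lpl in WT mice was -0.40 (adjusted p = 0.0822, limma).

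**Figure D2:**
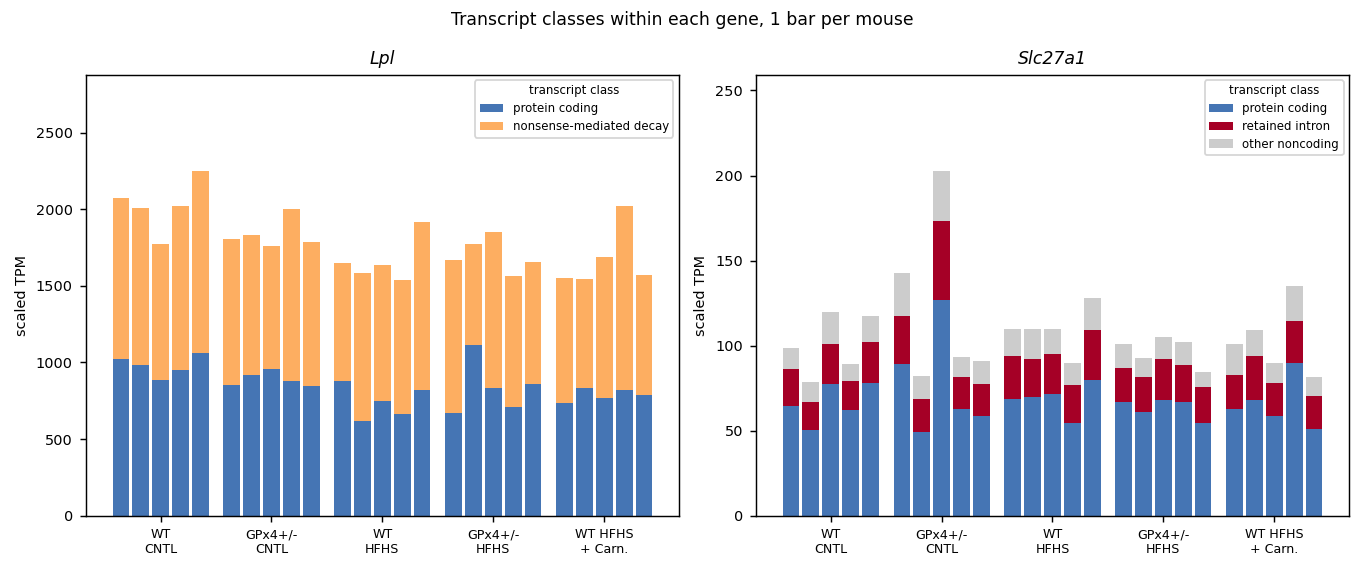
Scaled TPM of Lpl and Slc27a1 (vertical axes, from 0) by annotated class of transcript, stacked, with 1 bar per mouse in replicate order within each group. The protein-coding level of Lpl is lower in WT HFHS than in WT CNTL mice, and the 2 high GPx4+/- CNTL mice of Slc27a1 are high in every class.

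Gpihbp1 encodes the endothelial protein that carries lipoprotein lipase to the capillary lumen. It was not called on the diet, and its means were 159.7 ± 17.7 and 152 ± 14.6 scaled TPM on CNTL (WT and GPx4+/-; SD, n = 5) and 161 ± 25.0 and 159 ± 16.0 on HFHS. The log2 differences were 0.00 in WT and 0.06 in GPx4+/- mice, with adjusted p of 0.996 and 0.800 (limma).

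Vldlr encodes a receptor that binds triglyceride-rich lipoproteins. It was at 97.6, 97.4, 93.6, 98.5 and 105 scaled TPM in WT CNTL mice and at 83.6, 92.7, 92.1, 80.5 and 86.0 in WT HFHS mice, which did not overlap. With TPM as deposited they did, 1 WT HFHS mouse being at 107.2 and the lowest WT CNTL mouse at 98.5 TPM. On the scaled level, non-overlap of these 2 groups was seen for 3 of the 9 genes, Dbi, Fabp3 and Vldlr, and for 4.52% of all genes tested. For the 2 GPx4+/- groups it was seen for 2 of 9, Dbi and Fabp3, and for 4.49% of all genes. The log2 difference of Vldlr in WT mice, -0.18 ± 0.05 (SE), did not pass the adjustment (adjusted p = 0.0937, limma). GPx4+/- mice had 92.4 ± 5.94 on CNTL and 92.1 ± 4.12 on HFHS, a log2 difference of -0.0027. The difference between the genotypes in this effect was 0.18 ± 0.07 on the log2 scale (adjusted p = 0.677, limma).

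Slc27a1 encodes a fatty acid transport protein that also activates fatty acids to acyl-CoA. Its means were 101 ± 17.8, 109 ± 13.5 and 103 ± 20.7 scaled TPM in the WT groups (CNTL, HFHS and HFHS + Carnosine; SD, n = 5). GPx4+/- CNTL mice had 142, 82.2, 203, 93.5 and 91.0, the widest spread of any group, against 96.9 ± 8.40 in GPx4+/- HFHS mice. Replicates 1 and 3 of GPx4+/- CNTL were above every other mouse. In them 62.6% and 62.5% of the TPM came from protein-coding transcripts, within the 59.8% to 69.5% of all mice. Replicate 1 is also the mouse with the highest atrial marker sum, whose part in the value was not tested, while replicate 3 had an atrial sum of 36.3. The diet difference in GPx4+/- mice was -0.25 ± 0.19 on the log2 scale (adjusted p = 0.521, limma), and it was -0.048 without replicate 3 of GPx4+/- CNTL.

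Fabp4 and Fabp5 encode the binding proteins of endothelial cells, fat cells and macrophages, and they lie 187 kb apart on chromosome 3. Fabp4 averaged 657 ± 109 and 632 ± 68.8 scaled TPM on CNTL and 619 ± 74.3 and 642 ± 122 on HFHS (WT and GPx4+/-; SD, n = 5). Fabp5 averaged 28.0 ± 5.05 and 31.9 ± 3.03 on CNTL and 29.2 ± 2.43 and 31.0 ± 2.98 on HFHS. Their log2 diet differences lay between -0.08 and 0.07 with adjusted p of at least 0.772 (limma), and the groups overlapped. Summed levels of 7 capillary endothelial markers ran from 335 to 430.4 scaled TPM over all mice, with overlap between all groups. Of 7 adipocyte markers 1, Lipe, a lipase that muscle also expresses, was at 27.8 to 54.7 scaled TPM, and the medians of the other 6 were at most 0.161, with Lep at 0.

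**Figure D3:**
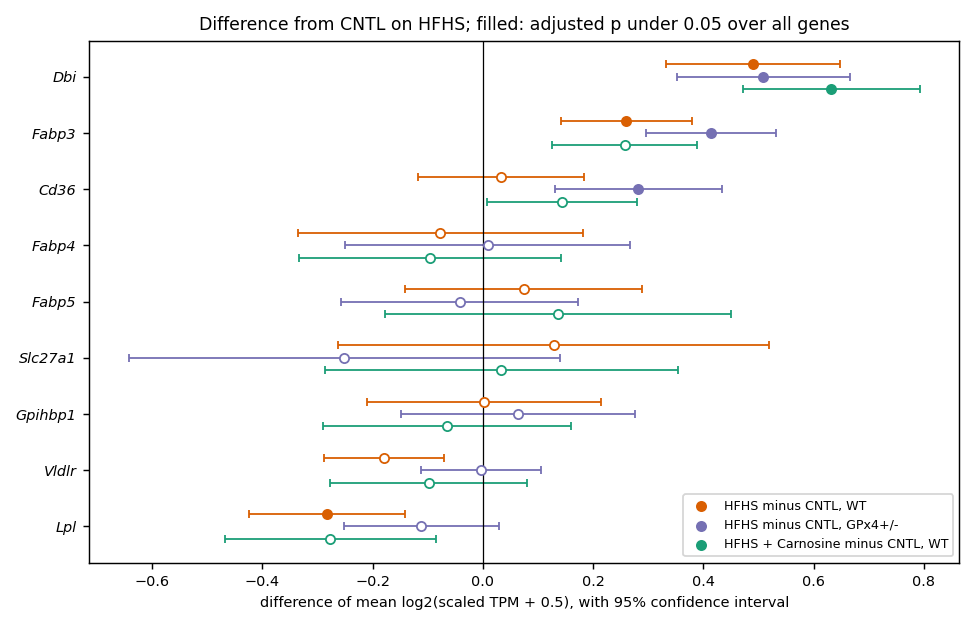
Differences from CNTL on HFHS for the 9 genes, on the log2(scaled TPM + 0.5) scale, with 95% confidence intervals, for WT mice, GPx4+/- mice and WT mice with carnosine. Filled points passed the adjusted p threshold of 0.05 over all genes tested: Dbi in all 3 comparisons, Fabp3 in both genotypes without carnosine, Cd36 in GPx4+/- mice and Lpl in WT mice.

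None of the genes was called between the genotypes on the same diet. In GPx4+/- against WT mice 0 of 9 genes were called on CNTL, on HFHS or over both diets, where 0.0501%, 0.0501% and 0.0584% of all genes were called (limma). At an unadjusted p under 0.05 there were 1, 0 and 0 of the 9, beside 753, 550 and 467 of all 11977 genes. The member was Fabp3 on CNTL, whose mean was 4453 scaled TPM in GPx4+/- and 4918 in WT mice, a log2 difference of -0.14 ± 0.06 (SE; unadjusted p = 0.0212, adjusted p = 0.747, limma), and 4 of 5 GPx4+/- mice were below every WT mouse. On HFHS the 2 genotypes had nearly equal Fabp3 means, 5938 and 5895. For the difference of the diet effect between genotypes, 0 of 9 and 0% of all genes were called (858 of 11977 had an unadjusted p under 0.05), and 2 of the 9, Cd36 and Vldlr, had an unadjusted p under 0.05 (limma).

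The carnosine comparison asks whether the dipeptide altered these genes in WT mice on HFHS. Compared with WT HFHS mice, 0 of 9 genes were called with carnosine, 0% of all genes were (503 of 11977 had an unadjusted p under 0.05), and 0 of the 9 had an unadjusted p under 0.05 (limma). The interval of the log2 difference was -0.06 to 0.34 for Dbi, -0.15 to 0.15 for Fabp3, -0.03 to 0.25 for Cd36 and -0.19 to 0.20 for Lpl. Against WT CNTL, the mice on HFHS with carnosine had Dbi higher, 1.56-fold or 0.63 ± 0.07 (SE) on the log2 scale (adjusted p = 0.00746, limma), 1 of 9 genes called where 0.234% of all genes were (0.184% higher and 0.0501% lower). Of all calls here 78.6% were higher, against 51.7% with TPM as deposited and 45.5% without mitochondrial transcripts. The Dbi call was lost with no filter on low levels (adjusted p = 0.0722, limma) and with the replicate block (adjusted p = 0.0835, limma). Fabp3 was 1.19-fold higher (0.26 ± 0.06 on the log2 scale) and Lpl 0.828 times the CNTL mean (-0.28 ± 0.09), with adjusted p of 0.104 and 0.212 (limma). The 5 values of Dbi and of Fabp3 did not overlap those of WT CNTL mice, as was the case for 3.28% of all genes. Both HFHS groups of WT mice share the same 5 WT CNTL mice, so these values and the WT diet values above are not independent.

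Some markers of cell types were called on the diet as well. Of 51 marker genes tested on 12 cell type lists, 5 were called over both genotypes (9.80%, near the 8.31% of all genes), and 9 lists had no call. The called ones included 2 of 6 cardiomyocyte markers, Ttn and Myh6 (both of the contractile apparatus), which were lower (log2 difference -0.27 and -0.17). Of the fibroblast markers 2 of 5, Pdgfra and Lum, were called higher (0.29 and 0.55), as was Cidea (0.29), a lipid droplet protein that stood on the brown adipocyte list. The median sum of the cardiomyocyte markers was 31825 and 31672 scaled TPM in the CNTL groups (WT and GPx4+/-) and 27132 and 28512 in the HFHS groups, with ranges that overlapped in both genotypes. In bulk tissue, fewer cells of a type and less RNA per cell cannot be told apart, and the part of these shifts in the values of the 9 genes was not tested.

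The wider pathway was described in the same way. Of 59 other genes of fatty acid uptake that were listed, 40 were expressed enough to be tested, among them other carriers, acyl-CoA binding domain proteins, regulators of lipoprotein lipase, lipoprotein receptors, acyl-CoA synthetases and transcription factors. On HFHS 1 of 40 was called higher in WT and 1 of 40 in GPx4+/- mice, and with the genotypes combined 1 rose and 1 fell. These are 2.50%, 2.50% and 5.00% of the 40, beside 1.19%, 3.34% and 8.31% of all genes. The higher gene was in each case Lmf1, which encodes a factor needed for lipoprotein lipase to fold. It had 20.6, 19.2, 19.3, 19.6 and 19.9 scaled TPM in WT CNTL and 24.9, 23.5, 25.3, 20.7 and 24.0 in WT HFHS mice. It had 17.9, 20.0, 16.4, 19.4 and 18.3 in GPx4+/- CNTL and 24.0, 20.2, 21.3, 23.5 and 21.7 in GPx4+/- HFHS mice. On the scaled level the HFHS mice lay above the CNTL mice in both genotypes, where 4.52% and 4.49% of all genes did not overlap, in either direction. With TPM as deposited the GPx4+/- groups overlapped, with GPx4+/- HFHS replicate 2 at 17.9 TPM and GPx4+/- CNTL mice at up to 21.0. The log2 differences were 0.26 ± 0.06 (SE) in WT (adjusted p = 0.0464, limma) and 0.26 ± 0.06 in GPx4+/- mice (adjusted p = 0.0242, limma), and over both 0.26 ± 0.04 (adjusted p = 0.00109, limma). The call over both genotypes was kept under every alternative. The call in WT mice was lost under 6 of 13 alternatives (adjusted p up to 0.228, limma) and without any 1 of 9 mice, all but WT HFHS replicate 4 (adjusted p up to 0.119, limma). That in GPx4+/- mice was lost under 2 of 13 (adjusted p up to 0.286, limma) and without any 1 of 5, CNTL replicates 1 and 3 and HFHS replicates 1, 4 and 5 (adjusted p up to 0.073, limma).

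The lower gene was Acsl4, an acyl-CoA synthetase that prefers arachidonic acid, at 2.74 ± 0.21 and 2.64 ± 0.34 scaled TPM on CNTL (WT and GPx4+/-; SD, n = 5) and 2.17 ± 0.11 and 2.34 ± 0.31 on HFHS. Its log2 difference over both genotypes was -0.21 ± 0.06 (SE; adjusted p = 0.0359, limma), and without the 6 mice chosen by marker genes it was -0.19 (adjusted p = 0.165, limma). The call was also lost with no filter on low levels (adjusted p = 0.0575, limma) and without mitochondrial transcripts (adjusted p = 0.0503, limma). It was lost without any 1 of 11 mice, WT CNTL replicates 1, 2 and 3, GPx4+/- CNTL replicates 2 and 3, WT HFHS replicates 2 and 4 and GPx4+/- HFHS replicates 1, 3, 4 and 5, with adjusted p up to 0.0681 (limma). Among the 4 other acyl-CoA binding domain genes that were tested, no call was made on the diet.

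Within a group, mice also differed from each other, and the genes did so in part together. Group means were removed from the log2 levels and the 36 pairs of genes were correlated over the 25 mice, with p from shuffling mice within groups. Of the 36 coefficients 27 were positive, with a median of 0.212. By Pearson's r 3 of the 36 pairs passed an adjusted p of 0.05, by Spearman's rho 6 did, and 2 passed by both. No such share was computed over pairs of all genes tested, so these counts do not set the 9 genes apart. Cd36 and Fabp4 had the highest Pearson coefficient, r = 0.736 and rho = 0.650 (permutation, adjusted p = 0.0121 and 0.0284), and r was 0.621 without the 2 mice farthest from the median of Cd36. Fabp4 and Gpihbp1 had r = 0.658 and rho = 0.615 (permutation, adjusted p = 0.0121 and 0.0318), and r was 0.660 without the 2 farthest mice of Fabp4. Fabp5 and Slc27a1 had r = -0.571 and rho = -0.559 (permutation, adjusted p = 0.0426 and 0.0605), and r was -0.474 without the 2 farthest mice. The highest rank coefficient was that of Fabp3 and Fabp4, rho = 0.745 and r = 0.613 (permutation, adjusted p = 0.00576 and 0.0526), and r was 0.629 without the 2 farthest mice of Fabp3. The other pairs past the threshold by rank alone were Lpl and Gpihbp1 (rho = 0.617, adjusted p = 0.0318), Fabp3 and Gpihbp1 (0.605, 0.0404) and Cd36 and Fabp3 (0.570, 0.0404), all by permutation, with adjusted p for r of 0.0612, 0.0526 and 0.212. The pair of Fabp5 and Slc27a1 lost the threshold without any 1 of 9 mice, WT CNTL replicates 2, 3 and 4, GPx4+/- CNTL replicates 2 and 3, WT HFHS replicate 5 and WT HFHS + Carnosine replicates 3, 4 and 5 (permutation, adjusted p up to 0.094). Dbi and Fabp3, the pair called higher on the diet, had r = 0.489 and rho = 0.524 (permutation, adjusted p = 0.0991 and 0.0845), and r was 0.494 without the 2 farthest mice of Fabp3. All values of a mouse share 1 library and 1 scaling factor. With TPM as deposited, 7 more pairs passed by Pearson's r, among them Fabp3 with Vldlr (0.580, where it was 0.128), Fabp3 with Lpl (0.564, where it was 0.270) and Fabp3 with Fabp5 (0.528, where it was 0.185), with permutation adjusted p of 0.00684, 0.00756 and 0.0300. Without the 6 mice chosen by marker genes, r was 0.665 for Cd36 and Fabp4, 0.631 for Fabp4 and Gpihbp1 and -0.575 for Fabp5 and Slc27a1, each with adjusted p = 0.101 over 19 mice (permutation).

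**Figure D4:**
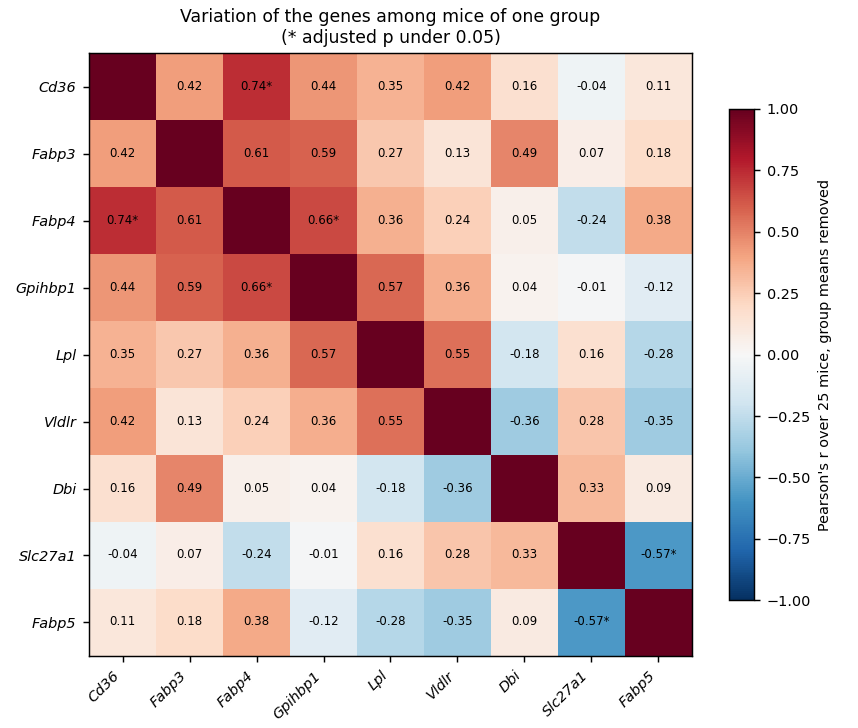
Pearson correlation of each pair of genes over the 25 mice after removal of group means, coloured from -1 (blue) to 1 (red), with a star at an adjusted permutation p under 0.05. The block of Cd36, Fabp3, Fabp4, Gpihbp1, Lpl and Vldlr is positive throughout, and Fabp5 with Slc27a1 is the negative pair past the threshold.

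The genes most like Dbi, Fabp3, Cd36, Fabp4, Gpihbp1, Lpl, Slc27a1 and Fabp5 over all 25 mice were found by Pearson's r of log2 levels. The search covered 11968 of the genes tested and left out the followed genes themselves. It was a description without a test, with diet differences left in. Dbi was most like Decr1 (r = 0.959), a reductase of mitochondrial oxidation of unsaturated fatty acids, followed by Ephx2 (0.919), an epoxide hydrolase of lipids, and Tesc (0.915). With group means removed, these were 0.856, 0.732 and 0.725. Decr1 itself had 174 ± 11.7 and 169 ± 23.3 scaled TPM on CNTL (WT and GPx4+/-) and 231 ± 34.2 and 239 ± 14.1 on HFHS. Fabp3 was most like Scn4b (0.925), a sodium channel subunit, Acads (0.911), a short-chain acyl-CoA dehydrogenase, and Gna12 (0.906), and with group means removed these were 0.544, 0.692 and 0.680. Cd36 was most like Hsdl2 (0.837), mt-Nd2 (0.803) and Zfp91 (0.801), or 0.711, 0.674 and 0.636 with group means removed. For the genes named next, r with group means removed ran from 0.691 to 0.928.

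Fabp4 was most like Rbp7 (r = 0.753), a retinol binding protein of endothelial cells, Cd300lg (0.724) and Gm4739 (0.696), and Gpihbp1 was most like Car4 (0.843), the carbonic anhydrase of capillaries, Ablim3 (0.778) and Adipor2 (0.765). Lpl was most like Dusp18 (0.863), Rasd2 (0.821) and Ulk1 (0.821). Slc27a1 was most like Arel1 (0.881), Slc25a34 (0.852) and Art5 (0.840). Fabp5 was most like Il2rg (0.767), a cytokine receptor chain of immune cells, Fam111a (0.763) and Nup93 (0.748).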

How the data were processed

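Per the labels, mRNA of left ventricular tissue was sequenced from 25 mice, and groups were taken from the sample labels. Columns of the table were assigned through the library number in the header, because the column positions in the labels do not match it. The authors deposited TPM per transcript, and per the labels the processing notes name kallisto 0.43.1, sleuth 0.30.0 and GRCm38. The paper states an approximate read depth per sample, but TPM sum to 1000000 in each library. The depth of a single library and its counting error thus cannot be given.

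By GENCODE M21, 116684 of 119215 transcripts were assigned to 35890 genes. Gene sums were scaled by median ratios over the 11775 genes with TPM of at least 0.5 in all mice, 0.5 was added and log2 taken. Genes whose mean scaled TPM reached 1 were tested with limma 3.58.1 (trended variance) in R 4.3.3, with Benjamini-Hochberg adjustment over all of them. The 20 mice without carnosine were fitted as 4 groups, and each carnosine comparison on its 10 mice. The study's own test, DESeq2 on gene counts, could not be used on TPM. Pairs of genes were compared with 100000 shuffles of mice within groups (10000 with each mouse left out). Transcripts were aligned with blastn 2.17.0. The procedure was tested on simulated data.

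The 9 genes, the pathway list and the marker lists were chosen with earlier results of these data known. Other genes were named if they stood on the pathway list and were called in any comparison, or were among the 3 most like a member. For Vldlr these are not reported here, nor is the promoter window of Dbi. The marker genes named were those called over both genotypes, chosen after their values were seen, as were the 6 mice left out in 1 alternative. Same-numbered mice of different groups are different animals, and their deviations correlated between -0.338 and 0.232 in 50 pairs, so the numbers were not used as pairs. Each mouse is taken as 1 replicate. GPx4+/- HFHS mice given carnosine were not analysed here. The alternatives changed the pseudocount to 0.1, the filter to 5 or to none, and the scaling to unscaled TPM, to quantiles or to TPM without mitochondrial transcripts. They also added a replicate block or array weights, fitted all 25 mice or only 2 groups, kept only protein-coding transcripts, added transcripts at least 95% identical to a gene's own, or left out each mouse.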

Additional observations from a re-analysis of the deposited data

Results flagged for a closer look

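In 45 gene and group combinations the highest or lowest of 5 mice was compared with the rest, and 2 stood apart, where about 1 in 20 would by chance. Cd36 in replicate 2 of GPx4+/- HFHS was the highest of its group at 1420.2 scaled TPM, and its gap to the next mouse was 0.718 of the range of the group. This mouse enters the Cd36 call, which was lost without it (adjusted p = 0.0756, limma). Vldlr in replicate 4 of GPx4+/- CNTL was the lowest of its group at 81.9 scaled TPM, with a gap of 0.796 of the range. Without this mouse the log2 diet difference of Vldlr over both genotypes was -0.11 and passed the threshold (adjusted p = 0.046, limma), where with all mice it was -0.09 (adjusted p = 0.130, limma).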

How the results depend on the processing

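For the 9 genes, 81 differences were recomputed in 2088 combinations with an alternative. In these 2039 kept their side of the threshold, 41 calls were lost, 8 were gained and 0 called differences changed sign, while 133 values of genes not called did. Of 9 genes, those called on the diet in WT mice fell from 3 to 1 (Dbi) with no filter on low levels, with TPM as deposited, with the replicate block and with only the 2 groups fitted, and ran from 1 to 3 with each mouse left out (1 without WT CNTL replicate 1, 2 or 4 or WT HFHS replicate 1 or 3). For HFHS with carnosine against CNTL the count went from 1 to 0 with no filter and with the replicate block, where Dbi had adjusted p = 0.0835 (limma), and to 2 with array weights and with all 25 mice fitted, where Fabp3 had adjusted p = 0.0492 and 0.02 (limma). Among all genes, those called on the diet in WT mice ran from 38 (TPM as deposited) up to 405 (array weights) around 142, and from 36 to 202 with each mouse left out. In GPx4+/- mice they ran from 124 with 2 groups fitted to 424 with TPM as deposited around 400 (192 to 482), over both genotypes from 715 to 1261 around 995 (796 to 1108), and for carnosine against CNTL from 0 with no filter to 140 with all 25 mice around 28 (4 to 77). For genotype over both diets they ran from 4 to 10 around 7, and for diet by genotype 1 gene was called without WT CNTL replicate 3 where 0 were otherwise. In the replicate block fit, Fabp3 (adjusted p = 0.0617) and Lpl (0.0839) lost their call in WT mice and Cd36 (0.0528) in GPx4+/- mice (limma). Causes of these changes were not tested. TPM as deposited moved the correlation of Fabp5 and Slc27a1 to -0.386 (adjusted p = 0.159, permutation) and brought 7 other pairs past the threshold. A pseudocount of 0.1 brought 2 past it (adjusted p = 0.0482, permutation), and leaving out mitochondrial transcripts brought 1, Cd36 and Fabp3 (r = 0.606, adjusted p = 0.0275, permutation), and lost 1, Fabp5 and Slc27a1 (r = -0.495, adjusted p = 0.0514, permutation).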
